A study of Mus musculus with 4 samples.

Results

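The comparison set a library from the digits of mice fed chow with SAR131675, an inhibitor of the receptor kinase VEGFR3, against a library from mice on the control diet. Members were the cell barcodes of these 2 libraries that held 200 to 5500 genes, at most 30000 unique molecular identifiers (UMIs, each counting 1 captured transcript) and at most 10% of UMIs from mitochondrially encoded genes. These limits kept 53106 of the 69295 barcodes of the pair, among 93602 cells kept by the same limits in all 4 libraries of the series. The SAR131675 library gave 29076 cells and the control library 24030.

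Both libraries are labelled as the P3 digit, P3 being the distal toe segment that carries the nail. They came from female mice aged 6 to 8 weeks, of strain C57BL/6 in the labels and C57BL/6J in the study's methods. In the study's account digit tips of both groups had been amputated and were regenerating, and the drug diet began before the amputation. Its methods describe the tip amputation for digits 2 and 4, so the pools may also hold digits without it. For each library hindlimb digits 2 to 4 of 10 mice were taken off at the proximal level of P2, the segment next to P3, and pooled. The tissue thus reached beyond the P3 tip. It was digested with collagenase and dispase, freed of red cells and sequenced by droplet single-cell RNA-seq. The treated mice ate chow with 30 mg of SAR131675 per kg for 8 days. The labels give the other library as the diet control without treatment, also with 8 days of diet. The series also holds a pair of libraries from limbs with and without lymph node removal, and values of that pair are given beside some results. By the study's text its sham was the opposite limb of the same mice, so its libraries share animals and circulation, whereas the diets were given to separate mice. Its matrices name Cell Ranger 6.1.2 in their headers and the diet matrices 8.0.1, and its kept cells had a median of 5725 and 5851 UMIs. For these reasons its spread is no measure of how far libraries from different mice differ. Each diet was 1 pooled library, so nothing could be tested between diets, and the differences below are measured differences between these libraries. The treated library carries batch label 3 and the control library batch label 4, and batch and diet cannot be told apart. The labels give neither the hour of collection nor the day after amputation, and the study's text and legends differ on that day.

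VEGFR3, encoded by Flt4, is the receptor through which VEGF-C and VEGF-D drive the growth of lymphatic vessels, and its kinase domain is what SAR131675 blocks. Blocking a kinase need not alter the mRNA that encodes it, so the level of Flt4 transcript is no check of the drug. The digit tip is built mainly of epidermis, nail and hair follicle epithelium around a core of fibroblasts, bone, vessels and nerve. Epidermal cells move from a dividing basal layer through spinous and granular layers to a cornified envelope, whereas nail and hair cells fill with a separate set of keratins. Most of these cells also run a circadian clock, a feedback loop in which CLOCK and ARNTL activate the Per and Cry genes whose products then repress them.

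The SAR131675 library held 585284877 UMIs in 38464 barcodes and the control library 448276501 UMIs in 30831. Kept cells had a median of 11316 UMIs in the SAR131675 library and 10712 in the control library, and a median of 1.87% and 1.73% mitochondrial UMIs. The limits removed more of the SAR131675 barcodes, leaving 75.6% against 77.9%. The libraries shared 348 barcodes, 210 of them kept in both. Levels are given as CPM, the UMIs of a gene per 1000000 UMIs of the cells summed, and differences as the log2 ratio of SAR131675 over control. Brackets hold exact 95% intervals, which cover counting error only and say nothing of how pools of mice vary.

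Cells were sorted into classes by the markers that led their clusters. The epithelial class held 19551 SAR131675 cells and 16116 control cells, 67.2% and 67.1% of kept cells, with a log2 ratio of shares of 0.00 (-0.03 to 0.03). The stromal class of fibroblasts, bone and mural cells held 5214 and 4376 cells, 17.9% and 18.2%, a ratio of -0.02 (-0.08 to 0.04). The endothelial class held 1042 and 933 cells, 3.58% and 3.88%, a ratio of -0.12 (-0.24 to 0.01). Of the 4 classes, the interval of nerve alone left out 0: it held 324 and 205 cells, 1.11% and 0.853%, a ratio of 0.38 (0.13 to 0.64). With each cell assigned by its own marker UMIs the nerve ratio was 0.29. It was 0.21, from 0.794% and 0.686%, when cells were also thinned to 1500 UMIs. Since the markers sorted the cells, their levels inside a class are no check of its name.

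Within the epithelial and stromal classes the makeup differed more than the class shares did. Cluster 10, led by the hair follicle keratins Krt25, Krt71 and Krt35, made up 6.45% of SAR131675 cells and 3.30% of control cells, a log2 ratio of 0.97 (0.85 to 1.09). Cluster 13, led by the granular layer genes Wfdc21, Hrnr and Flg, made up 2.95% and 4.92%, a ratio of -0.74 (-0.87 to -0.61). Cluster 27, stromal cells led by Ccer2, Gpc5 and Rspo3, made up 2.11% and 1.47%, a ratio of 0.52 (0.33 to 0.71). These clusters were built from the same transcripts that are compared below, so a cluster's share and the level of its leading genes are a single observation, and the shares are given as the mix of the libraries and not as numbers of a cell type. For that reason each log2 ratio of a class is followed where it matters by the ratio with clusters weighted alike, in which both libraries were given the same mix of clusters by UMIs. All clusters come from the same 2 libraries. Counts of clusters on 1 side, given below, are therefore not counts of separate observations.

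**Figure D1:**
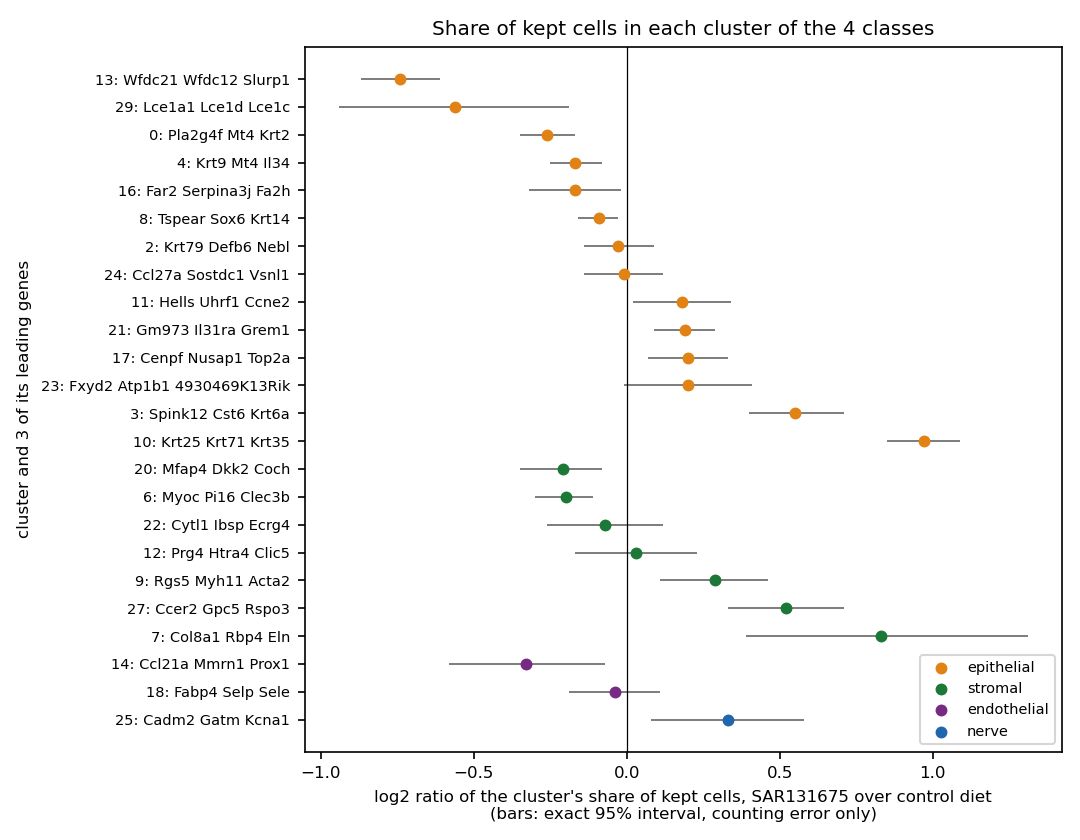
Log2 ratio of each cluster's share of kept cells, SAR131675 over control (horizontal axis), for the clusters of the 4 classes, each labelled with 3 of its leading genes and coloured by class, with bars for the exact 95% counting interval. Cluster 10 stands furthest to the right at 0.97 and cluster 13 furthest to the left at -0.74.

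Over all kept cells most transcripts lay close to equal in the libraries. Among the 18944 genes with at least 100 UMIs the log2 ratio had an SD of 0.323, and in the lymph node removal pair it had an SD of 0.232 over 16085 genes. A total of 133 genes were more than 2-fold higher under SAR131675 (0.702% of those measured) and 71 more than 2-fold lower (0.375%), 1.08% in all. The other pair, shallower and from limbs of the same mice, had 41 and 41. The split leaned on how cells were weighted, since with every cell given equal weight it was 125 higher and 124 lower. It turned to 65 higher and 581 lower when every cell with at least 2 marker UMIs of each of 2 classes was left out, which kept 20465 of the 53106 cells. Of the 133 higher genes, 60 had at least 50% of their UMIs in 10 cells of the SAR131675 library, and of the 71 lower genes 33 had as much in 10 cells of the control library. With clusters weighted alike, 17 of the other 73 higher genes and 18 of the other 38 lower genes were still past 2-fold.

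**Figure D2:**
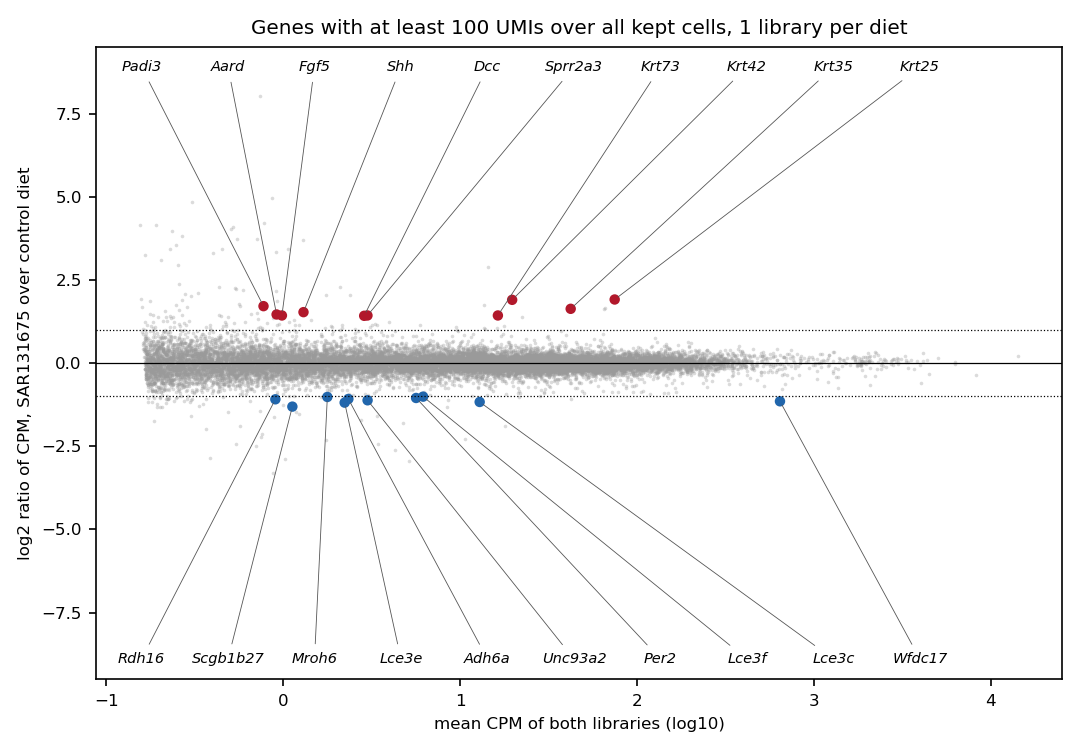
Log2 ratio of SAR131675 over control (vertical axis) against the mean CPM of the libraries (horizontal axis, log10) for each gene with at least 100 UMIs over all kept cells, with dotted lines at 2-fold and the genes named by rule in red (higher) and blue (lower). Most of the 18944 points lie between the dotted lines, with 133 above and 71 below.

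The clock genes were lower under SAR131675 almost throughout the list. Of 17 measured clock genes 16 were lower, against 52.6% of all genes, and 1 was past 2-fold lower. Their median log2 ratio was -0.41 where the median gene stood at -0.01, and -0.36 with clusters weighted alike. Per2, a repressor of the loop, had 1252 UMIs in the SAR131675 library and 2023 in the control library, or 3.69 CPM (3.48 to 3.90) and 7.61 CPM. It was thus the lowest of the list at a log2 ratio of -1.05 (-1.15 to -0.94), and it was lower in 25 of the 26 clusters with enough of its UMIs to compare. Its UMIs lay in 3.72% of SAR131675 cells and 7.16% of control cells, and 10 cells held no more than 2.88% of them in either library.

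The Per, Cry and output genes given here, chosen after their values were seen, lay between Per2 and the activators. Some members of the list are not given. Per1, the partner of Per2, had 6809 and 8726 UMIs, a ratio of -0.71 (-0.76 to -0.67), and was lower in 30 of 32 clusters. The cryptochromes that complete the repressor complex followed, Cry1 at -0.44 (-0.47 to -0.40) and Cry2 at -0.50 (-0.54 to -0.47). Ciart, a further repressor of the loop, stood at -0.55 (-0.64 to -0.47). The output transcription factors of the PAR family, which carry the rhythm to other genes, stood at -0.48 for Hlf, -0.45 for Tef and -0.43 for Dbp. The activators lay near equal, with Clock, the member with most UMIs, at 200.6 and 211.2 CPM, a ratio of -0.07 (-0.09 to -0.06), and Arntl at -0.11 (-0.14 to -0.09). Bhlhe41, a repressor that competes for the same DNA, was the highest member at 0.03 (-0.04 to 0.11), which turned to -0.13 with clusters weighted alike. In the lymph node removal pair, whose limbs came from the same mice, the same 17 genes had a median of 0.00, with 9 higher and 8 lower.

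CLOCK and ARNTL bind the E-box, and the windows below show where its letters stand upstream of 4 of the lower clock genes. The word searched was CACGTG, which reads the same on both strands, in the 250 bases before each start site. It was present for 5 of the 15 clock genes with a promoter entry (33.3%), against 1854 of 27025 genes with an entry (6.86%). Sequences are from RefSeq on build GRCm38.p6, an older build than the GRCm39 of the count files, and each reads in the direction of its gene with the motif in capitals. The strand and place are + at chr11:69098756-69098815 for Per1, - at chr10:85185082-85185141 for Cry1, - at chr3:95882240-95882299 for Ciart and + at chr15:81802519-81802578 for Tef.
Per1: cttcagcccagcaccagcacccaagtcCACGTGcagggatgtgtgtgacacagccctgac
Cry1: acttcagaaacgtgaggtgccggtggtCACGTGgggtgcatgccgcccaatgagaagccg
Ciart: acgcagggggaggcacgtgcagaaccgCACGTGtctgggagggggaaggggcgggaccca
Tef: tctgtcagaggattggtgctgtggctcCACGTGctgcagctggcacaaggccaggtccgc
The motif starts 166 bases before the start site in Per1, 60 in Cry1, 44 in Ciart and 127 in Tef. The Ciart promoter holds the letters at 3 places, 1 of the others in lower case within the window shown, and a further start site of Tef has a match as well. Bhlhe41 is the fifth gene with a match, so Per2, the lowest of the clock list, is not among the 5. Of the glucocorticoid response genes described next, 5 of 13 with a promoter entry held the letters (38.5%). A match describes letters and is no evidence that a factor was bound.

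Genes that glucocorticoids induce were lower under SAR131675 alongside the clock genes. Glucocorticoids are adrenal hormones whose level in blood follows the day, and Per1 is in both lists because their receptor also activates it. Of 16 measured members 14 were lower, with a median of -0.24, or -0.33 with clusters weighted alike. Zbtb16, a zinc finger transcription factor induced by the receptor, had 34.8 CPM under SAR131675 and 65.1 CPM in the control library, a ratio of -0.90 (-0.94 to -0.87). It was lower in 29 of 29 clusters. Fkbp5, a chaperone that dampens the receptor, had 24.4 and 37.6 CPM, a ratio of -0.63 (-0.67 to -0.58), and was lower in 31 of 31 clusters. Mt1, the metallothionein with most UMIs in the list, stood at -0.27 (-0.28 to -0.26), and Angptl4 was the highest member at 0.34 (0.23 to 0.45). In the lymph node removal pair 15 of the 16 genes were on the higher side, with a median of 0.15.

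The sign of both lists held over nearly all clusters, which come from the same 2 libraries and are not separate observations. The clock median was below 0 in 30 of 32 clusters, from -0.53 to 0.13, and the exceptions were immune cluster 26 at 0.01 and epithelial cluster 29 at 0.13. The glucocorticoid median was below 0 in 31 of 32, from -0.65 to 0.16, with cluster 29 again the exception. By class the clock medians were -0.42 in epithelial, -0.25 in stromal, -0.13 in endothelial and -0.06 in nerve cells, with 15 of 17, 17 of 17, 11 of 16 and 9 of 10 members lower. Differences between classes were not tested.

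Genes of the unfolded protein and integrated stress responses were mostly higher under SAR131675, by small amounts. Of the 22 measured 17 were higher, against 47.4% of all genes, with a median of 0.16, and the cluster median was above 0 in 30 of 32 clusters. Pdia4, a disulfide isomerase, was the highest at 61.9 and 41.6 CPM, a ratio of 0.57 (0.54 to 0.60), and Pdia3, the member with most UMIs, stood at 0.20 (0.19 to 0.21). The glutathione-degrading enzyme Chac1, a target of ATF4, was the lowest at -0.37 (-0.54 to -0.21). Among members chosen after their values were seen, Hspa5, Hsp90b1, Pdia6 and Sdf2l1, which act in protein folding, stood at 0.35, 0.43, 0.39 and 0.55, and Asns, Trib3 and Phgdh at -0.24, -0.28 and -0.17. Chac1 stood at 0.04 and Trib3 at 0.00 with clusters weighted alike. Nuclear genes of oxidative phosphorylation (24 of 26 higher, median 0.12) had a median above 0 in 31 of 32 clusters. Mitochondrially encoded genes (11 of 13 higher, median 0.13) did so in 31 of 32 as well. Their share of UMIs was a limit for keeping cells, so their values restate that share and are no separate result. That share was higher in the SAR131675 library, and its part in the nuclear values was not tested.

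**Figure D3:**
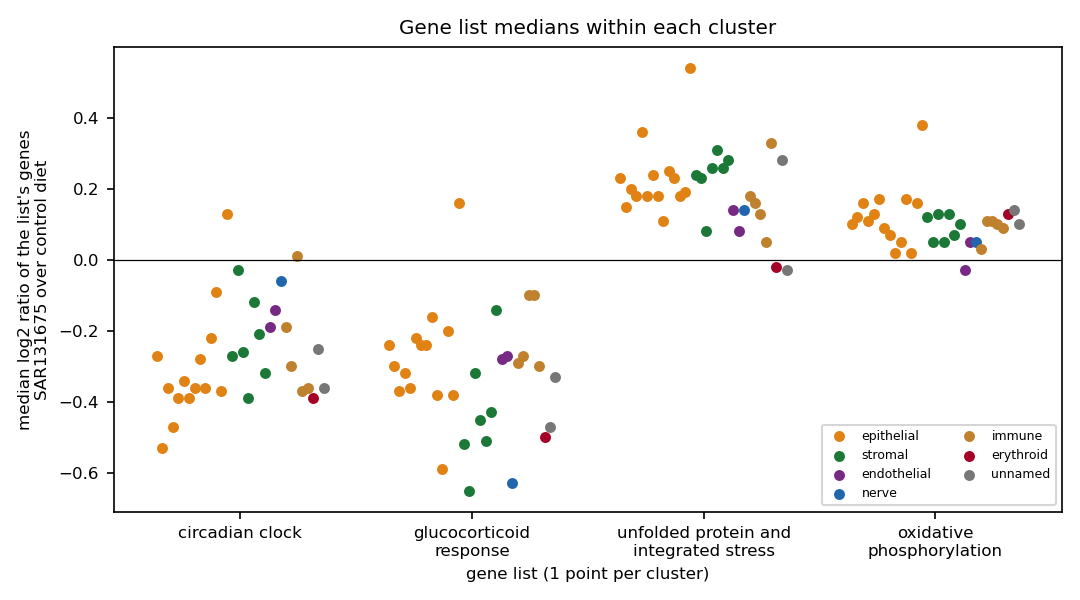
Median log2 ratio of SAR131675 over control for 4 gene lists (horizontal axis), with 1 point per cluster coloured by class. The clock and glucocorticoid points lie below 0 in 30 and 31 of 32 clusters, the unfolded protein points above 0 in 30 and the oxidative phosphorylation points above 0 in 31. The points come from the same 2 libraries and are not separate observations.

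A fixed rule named 10 genes on each side over all cells, asking for at least 500 UMIs and leaving out genes with 50% or more of their UMIs in 10 cells of the library with the higher CPM. The higher side ran from Krt25 at 1.91 to Dcc at 1.42, by way of the keratins Krt42 (1.90), Krt35 (1.63) and Krt73 (1.43), the arginine deiminase Padi3 (1.71), the hedgehog ligand Shh (1.53), Aard (1.46), Fgf5 (1.43) and Sprr2a3 (1.43). Krt25, a keratin of the inner root sheath, had 40209 UMIs against 8352, or 118.4 CPM (117.2 to 119.5) against 31.4 CPM. Its ratio was 0.87 with clusters weighted alike, and in the lymph node removal pair it was -1.44 (-1.49 to -1.39), past 2-fold in the opposite direction between limbs without the drug. The lower side ran from Scgb1b27 at -1.31 to Lce3f at -1.01 and held the late envelope genes Lce3e (-1.19) and Lce3c (-1.17), the secreted WAP-domain protein Wfdc17 (-1.15), Unc93a2 (-1.12), the retinol and alcohol dehydrogenases Rdh16 (-1.09) and Adh6a (-1.08), Per2 (-1.05) and Mroh6 (-1.02). Of these 20 genes, Per2, Krt42 and Sprr2a3 were past 2-fold with clusters weighted alike, at -1.15, 1.43 and 1.82. For Krt42, 10 cells held 46.1% of the SAR131675 UMIs and 72.3% of the control UMIs. In the lymph node removal pair Sprr2a3 stood at -1.87 (-2.31 to -1.47), past 2-fold in the opposite direction, Krt42 at -0.23 and Per2 at 0.18.

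**Figure D4:**
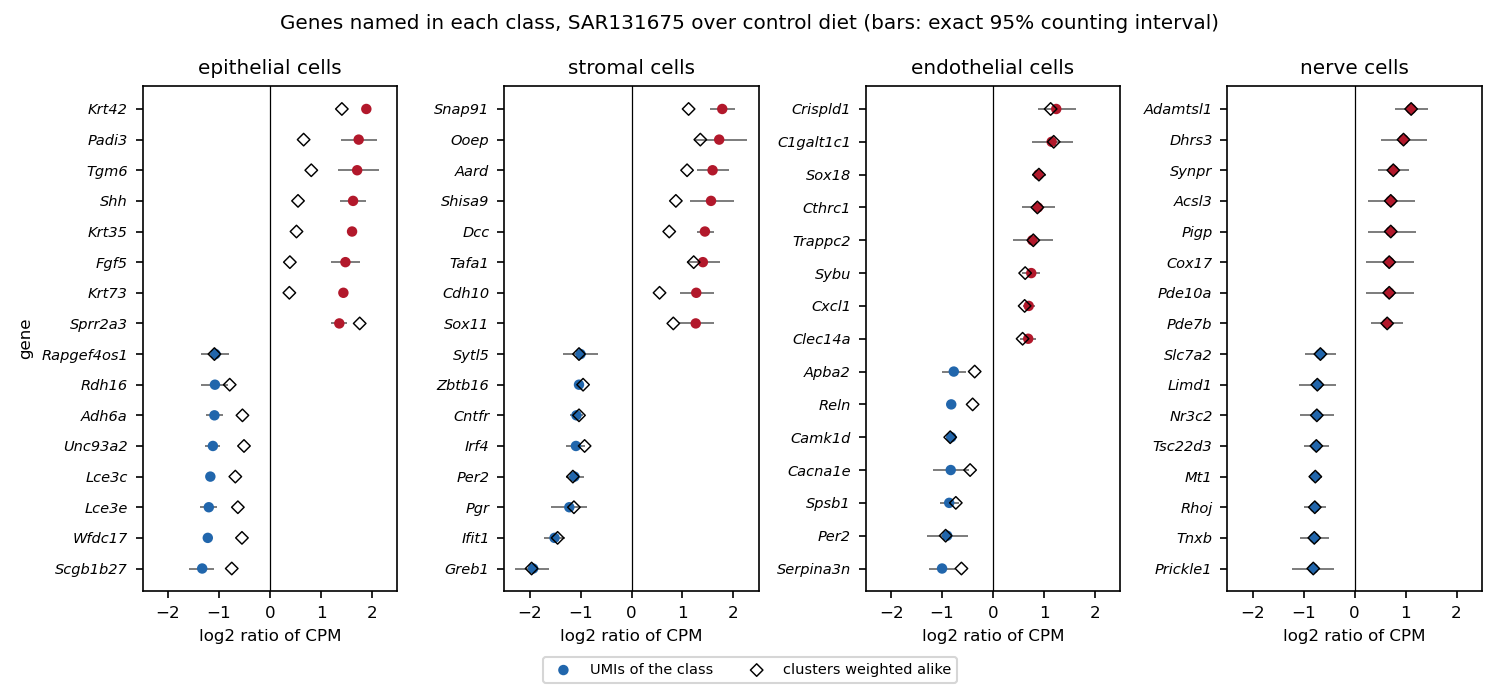
Log2 ratio of SAR131675 over control for genes named by rule in each class, as red (higher) or blue (lower) points with bars for the exact 95% counting interval, and as diamonds with clusters weighted alike. The diamonds of most epithelial genes lie nearer 0 than their points, as for Krt35 at 1.61 and 0.52, and those of the lower stromal genes lie on or beside them, as for Per2 at -1.12 and -1.15.

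In the epithelial class, 150 of 16529 genes were past 2-fold higher (0.907%) and 65 past 2-fold lower (0.393%), 1.30% in all. Of all genes 49.5% were above 0 and 50.5% below. With every cell weighted equally the split was 108 higher and 139 lower. Nail and hair keratins and their partners were the group with the widest differences. Of 17 measured members 15 were higher, 12 of them past 2-fold, with a median of 1.61, against a median over all genes of 0.00. Krt25, the member with most UMIs, had 153.1 CPM in SAR131675 epithelium and 40.8 CPM in control epithelium, a ratio of 1.91 (1.87 to 1.94), and 10 cells held 50.7% of its SAR131675 UMIs. Krt35, a keratin of the hair and nail matrix, had 83.3 and 27.3 CPM, a ratio of 1.61 (1.57 to 1.65), and was higher in 9 of 9 clusters. Tchh, which crosslinks root sheath keratins, stood at 1.67 (1.63 to 1.70).

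The keratin difference was smaller once the mix of clusters was set equal. With clusters weighted alike the list median was 0.53, and within clusters it stayed above 0 in 12 of 12. Krt25 went from 1.91 to 0.84 and was higher in 12 of 12 clusters, and Krt71 went from 1.60 to 0.53 and was higher in 11 of 12. Krt42, a nail keratin, moved less, from 1.89 to 1.41, but was higher in 4 of 7 clusters and lower in 3. In epithelium 10 cells held 47.2% of its SAR131675 UMIs and 73.6% of its control UMIs. Krt36 and Krt84, hard keratins of the nail, went the other way at -1.89 and -2.28, with 81.9% and 79.6% of their SAR131675 UMIs, and 90.2% and 87.7% of their control UMIs, in 10 cells. In the lymph node removal pair they stood at 1.89 and 1.94. Outside the epithelial class Krt25 was at 16.3 CPM in the SAR131675 library and 3.02 CPM in the control library, so keratin RNA in cells of other classes went the same way. Its part in the values of those classes, and of epithelial clusters other than cluster 10, was not tested. The clusters on the higher side therefore cannot be counted as separate observations. Within cluster 10 Krt25 stood at 0.83 (0.79 to 0.86) and Krt35 at 0.50 (0.45 to 0.54). In the lymph node removal pair the list median was -0.23.

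Other genes named in epithelium by the rule (at least 200 UMIs and a CPM, as the mean of both libraries, no lower than outside the class) included signals and enzymes of the follicle. Shh, the ligand that patterns follicle growth, had 2.53 and 0.817 CPM, a ratio of 1.63 (1.38 to 1.89), which was 0.55 with clusters weighted alike. Fgf5, the growth factor that ends the growth phase of hair, had 1.80 and 0.646 CPM, a ratio of 1.48, and 0.39 with clusters weighted alike. Padi3 (1.74), Tgm6 (1.71), which codes for a transglutaminase, Krt73 (1.44) and Krt42 (1.89) made up the rest with Sprr2a3. That small proline-rich envelope gene went from 1.36 to 1.76 once clusters were weighted alike. It had more UMIs in cluster 13 than in any other epithelial cluster, at 30.3 and 8.88 CPM. In epithelium of the lymph node removal pair it stood at -1.71 (-2.15 to -1.31).

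Cornified envelope genes were lower as a list over the class, but not within most clusters. Of 25 measured members 23 were lower, 1 of them past 2-fold, with a median of -0.61. Lor, the main protein of the envelope and the member with most UMIs, had 1281.8 and 1889.5 CPM, a ratio of -0.56 (-0.57 to -0.55). Lce3c, a late envelope protein, was the lowest at 10.6 and 23.8 CPM, a ratio of -1.17 (-1.24 to -1.10), and Sprr2d the highest at 0.43 (0.25 to 0.61). With clusters weighted alike the list median was -0.11, and within clusters it was above 0 in 12 of 14, so the lower level did not hold inside most clusters. Lor itself was 0.07 with clusters weighted alike and Flg, filaggrin, went from -0.44 to 0.21. Lce3c remained lower at -0.68.

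Spinous and barrier lipid genes followed the same course. The spinous list had 12 of 14 members lower and a median of -0.30, which was -0.03 with clusters weighted alike and above 0 in 10 of 14 clusters. The barrier lipid list had 13 of 18 lower and a median of -0.20, which was -0.05. Wfdc17, one of the genes that define cluster 13, had 478.5 and 1118.3 CPM in epithelium, a ratio of -1.22 (-1.23 to -1.21), or -0.55 with clusters weighted alike, and was lower in 11 of 14 clusters. Scgb1b27 (-1.33), Lce3e (-1.20), Unc93a2 (-1.12), Adh6a (-1.09) and Rdh16 (-1.08) were named with it, and these moved to between -0.79 and -0.51 with clusters weighted alike. Rapgef4os1, an antisense transcript that can share reads with Rapgef4 where strand is not kept, had 181 and 300 UMIs, a ratio of -1.07 (-1.35 to -0.80) and -1.09 with clusters weighted alike.

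Genes of cell division were higher in epithelium, by less than 2-fold. All 29 measured genes of the G2 and M phases were higher, with a median of 0.43, and all 22 S phase genes, with a median of 0.33. Weighting clusters alike gave medians of 0.12 and 0.07. The G2 and M median was above 0 in 10 of 13 epithelial clusters and below 0 in 3, from -1.98 to 0.38. Over all kept cells Mki67, the G2 and M member with most UMIs, stood at 0.06 (0.04 to 0.08). That value turned to -0.28 with clusters weighted alike, and Mki67 was higher in 10 of 31 clusters and lower in 21. The dividing clusters 17 and 11 made up 4.08% and 2.72% of SAR131675 cells and 3.56% and 2.40% of control cells. Among wound and stress keratinocyte genes 11 of 19 were higher, with a median of 0.23, or 0.09 with clusters weighted alike. The median was above 0 in 8 of 14 clusters and below 0 in 6. S100a8, an alarmin made in bulk by neutrophils, was the highest at 3.80 (3.58 to 4.04), with 2917 UMIs against 164, of which 10 cells held 73.2% in the SAR131675 library. Stromal markers were higher in SAR131675 epithelial cells for 12 of 12 genes, at 318.4 and 235.8 CPM in sum, and their part in the epithelial values was not tested.

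In the stromal class 100 of 14567 genes were past 2-fold higher (0.686%) and 16 past 2-fold lower (0.110%), 0.796% in all, and 48.0% of all genes were above 0 and 52.0% below. Of the 100 higher genes 50 had at least 50% of their SAR131675 UMIs in 10 cells. At a coarser or a finer clustering fewer genes were past 2-fold, with 42 higher and 21 lower or 46 higher and 20 lower. The class then held 18.5% of SAR131675 and 19.4% of control cells, or 16.5% and 17.2%, so its members changed with the clustering. The genes named here rest on the main clustering, and the part of cluster 27 in that change was not tested. The 8 genes named on the higher side all had more UMIs in cluster 27 than in any other stromal cluster: Snap91 (1.78), Ooep (1.72), Aard (1.59), Shisa9 (1.56), Dcc (1.44), Tafa1 (1.40), Cdh10 (1.27) and Sox11 (1.26). They lay between 0.55 and 1.35 with clusters weighted alike.

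Snap91, an adaptor of clathrin vesicles at synapses, had 12.7 and 3.69 CPM, a ratio of 1.78 (1.53 to 2.04), or 1.12 with clusters weighted alike. Dcc, the netrin receptor, had 26.2 and 9.62 CPM, a ratio of 1.44 (1.28 to 1.61), or 0.74 with clusters weighted alike. Sox11, a transcription factor of embryonic mesenchyme and neurons, had 5.71 and 2.37 CPM, a ratio of 1.26 (0.93 to 1.61), and was higher in 4 of 4 clusters. In both libraries these transcripts were rare: between 1.53% and 3.59% of SAR131675 stromal cells and between 0.686% and 1.67% of control stromal cells held a UMI of any 1 of the 8. Sox2 and Sox18, a pair outside the rule and chosen after their values were seen, also had more UMIs in cluster 27 than in any other stromal cluster. They stood at 1.11 (0.86 to 1.38) and 1.11 (0.85 to 1.39), and at 0.40 and 0.42 with clusters weighted alike.

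The 8 stromal genes named on the lower side lay between -1.96 and -0.92 with clusters weighted alike. The lowest of them without that weighting stood at -1.93. Both -1.96 and -1.93 are values of Greb1, whose place among the 8, like that of Pgr, rests in part on the difference itself, as described below. With Greb1 and Pgr set aside, the weighted range ran from -1.45 for Ifit1 to -0.92 for Irf4. Without that weighting Ifit1 stood at -1.51. Zbtb16 had 4102 and 6549 UMIs, or 77.1 CPM and 157.0 CPM, a ratio of -1.03 (-1.08 to -0.97), and was lower in 7 of 7 clusters. Its UMIs were found in 40.4% of SAR131675 and 59.8% of control stromal cells. Per2 had 8.17 and 17.7 CPM, a ratio of -1.12 (-1.29 to -0.94), and was also lower in 7 of 7. Cntfr, the receptor subunit for ciliary neurotrophic factor, had 16.1 and 34.2 CPM, a ratio of -1.08 (-1.21 to -0.96), and was lower in 6 of 6. Irf4, a transcription factor best known in lymphocytes, stood at -1.09 (-1.28 to -0.91), with enough UMIs to compare in cluster 6 alone, led by Pi16 and Clec3b. Sytl5, an effector of Rab vesicle transport, had 2.12 and 4.24 CPM.

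Greb1, a target of the estrogen receptor, and Pgr, the progesterone receptor, were named on the lower side too. Greb1 had 101 UMIs in SAR131675 stroma and 303 in control stroma, or 1.90 and 7.27 CPM, a ratio of -1.93 (-2.28 to -1.61). Pgr had 107 and 196 UMIs, or 2.01 and 4.70 CPM, a ratio of -1.22 (-1.58 to -0.88). Both were lower in 2 of 2 clusters, and weighting clusters alike left them at -1.96 and -1.13. Outside the stromal class Greb1 had 2.71 and 3.86 CPM and Pgr 2.62 and 3.62 CPM, so each was below the outside level under SAR131675 and met the class rule only through the control library, where it was high. Their place among the named genes therefore rests in part on the difference itself.

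Interferon-stimulated genes were lower in stroma in most members. Of 26 measured, 23 were lower, 2 of them past 2-fold, with a median of -0.24, and -0.15 with clusters weighted alike. Ifit1, an antiviral RNA-binding protein, had 5.43 and 15.5 CPM, a ratio of -1.51 (-1.72 to -1.31), and 10 cells held 46.2% of its control UMIs. Rsad2, which codes for viperin, was the lowest at -2.74 (-3.11 to -2.40) with 81 and 426 UMIs, and 10 cells held 77.9% of the control UMIs. Ifi27, the member with most UMIs, stood at 0.17 (0.12 to 0.23), and Ifi27l2a was the highest at 0.34 (0.25 to 0.42). The cluster median was below 0 in 6 of 7 clusters and lowest, at -0.96, in cluster 12, led by Prg4. In the lymph node removal pair 20 of 24 members were higher, with a median of 0.14.

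Osteoblast genes were mostly higher over the stromal class. Of 14 measured, 12 were higher, 2 of them past 2-fold, with a median of 0.43, and 0.40 with clusters weighted alike. Within clusters the median was above 0 in 3 of 6 and below 0 in 3, from -0.16 to 0.53. Spp1, osteopontin, had 446.3 and 213.3 CPM, a ratio of 1.07 (1.03 to 1.10), and 1.16 with clusters weighted alike. Dmp1, made by osteocytes, was the highest at 7.59 and 3.26 CPM, a ratio of 1.22 (0.93 to 1.51). Bglap, osteocalcin, stood at 0.83 (0.75 to 0.90) and Ibsp, bone sialoprotein, at 0.56 (0.53 to 0.60), while the regulator Runx2 lay at 0.24 (0.18 to 0.29). The matrix genes rested on few cells, since 10 cells held 49.6% of the Spp1 UMIs and 54.3% of the Bglap UMIs in the SAR131675 library. Cluster 22, led by Ibsp, Spp1 and other bone and cartilage genes, made up 1.74% and 1.83% of kept cells. Fibrillar collagen genes as a list were centred at 0.01, although Col1a1, Col1a2 and Serpinh1, the chaperone of collagen, stood at 0.33, 0.28 and 0.57.

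Glucocorticoid response genes were lower in stroma for 15 of 16 members, with a median of -0.42. Klf9, the member with most UMIs, had 471.4 and 651.5 CPM, a ratio of -0.47 (-0.49 to -0.44). Tsc22d3, also called GILZ and a mediator of the anti-inflammatory action of the hormone, had 120.6 and 181.5 CPM, a ratio of -0.59 (-0.64 to -0.54). The metallothioneins Mt1 and Mt2 stood at -0.69 and -0.68. Zbtb16 was the lowest, at the value above, and Angptl4 the highest at 0.35 (0.16 to 0.55). The list median was below 0 in 7 of 7 stromal clusters.

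Enzymes of cholesterol synthesis were higher in stroma and lower in epithelium. In stroma 20 of 21 were higher, with a median of 0.33, or 0.26 with clusters weighted alike, and the median was above 0 in 6 of 7 clusters. Fdps, which makes farnesyl diphosphate, was the highest at 64.2 and 42.3 CPM, a ratio of 0.60 (0.52 to 0.69). Hmgcs1, the first enzyme particular to the pathway and the member with most UMIs, had 148.0 and 115.6 CPM, a ratio of 0.36 (0.30 to 0.41), and the regulator Srebf2 was the lowest at -0.10 (-0.16 to -0.03). In epithelium 18 of 21 were lower, with a median of -0.22, or -0.08 with clusters weighted alike, and the median was below 0 in 8 of 14 clusters and above 0 in 6. There Hmgcs1 had 324.4 and 368.8 CPM, a ratio of -0.19 (-0.20 to -0.17). In the lymph node removal pair the medians had the same signs and were smaller. They were 0.04 in stroma, with 15 of 21 higher, and -0.05 in epithelium, with 16 of 21 lower. The difference between the classes was not tested.

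Unfolded protein genes were also higher in stroma, in 19 of 21 members with a median of 0.30, and in 7 of 7 clusters. Sdf2l1 was the highest at 0.67, Hspa5, the main chaperone of the reticulum, had most UMIs and stood at 0.34, and Sesn2 was the lowest at -0.27. Among the ligands of the lymphatic receptor, Vegfc had 44.5 and 58.6 CPM in stroma, a ratio of -0.40 (-0.48 to -0.31), and was lower in 5 of 6 clusters. Vegfd lay at 38.4 and 40.1 CPM, a ratio of -0.06 (-0.16 to 0.03). These stromal cells also held more epithelial RNA under SAR131675, with all 12 epithelial markers higher at 1606.7 and 1286.7 CPM in sum. Immune markers were higher for 10 of 10 at 15.1 and 7.46 CPM, and melanocyte markers for 5 of 6 at 5.64 and 3.52 CPM. The part of these in the stromal values was not tested.

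In the endothelial class 30 of 10602 genes were past 2-fold higher (0.283%) and 30 past 2-fold lower (0.283%), 0.566% in all, and 47.8% of all genes were above 0 and 52.2% below. The split was 35 higher and 109 lower with every cell weighted equally. Of the genes past 2-fold, 24 higher and 24 lower had at least 50% of their UMIs in 10 cells. Hemoglobin and other erythroid genes were lower for 4 of 4 measured with a median of -1.58, and the erythroid markers summed to 842.2 and 2628.5 CPM. Stromal markers summed to 1427.6 and 1157.1 CPM, with 9 of 12 higher and 3 lower. Epithelial markers summed to 2730.7 and 3154.7 CPM, with 7 of 12 higher and 5 lower. The part of these in the endothelial values was not tested. The class held 2 clusters, cluster 14 led by lymphatic genes such as Prox1 and Reln with 0.856% and 1.07% of kept cells, and cluster 18 led by blood endothelial genes such as Selp and Plvap with 2.73% and 2.81%.

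Flt4, the gene of the drug's target, was lower in the endothelial class at 868 and 983 UMIs, or 95.6 and 138.2 CPM, a ratio of -0.53 (-0.67 to -0.40). Within cluster 14, which Flt4 helps to define, it stood at 466.0 and 520.5 CPM, a ratio of -0.16 (-0.30 to -0.02), and -0.16 was also its value with clusters weighted alike. A UMI of Flt4 was found in 27.1% of SAR131675 and 29.8% of control endothelial cells, against 0.113% and 0.112% of epithelial cells, a class that should lack it. The median depth was 7763.5 and 6551 UMIs in endothelial cells and 12754 and 12178 in epithelial cells.

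The other VEGF receptors were nearer to equal. Flt1, the member of the VEGF list with most UMIs and a decoy receptor for VEGF-A, had 1455.9 and 1325.3 CPM, a ratio of 0.14 (0.10 to 0.17), and 0.02 with clusters weighted alike. Kdr, which encodes VEGFR2, the main receptor of blood endothelium, had 502.0 and 504.8 CPM, a ratio of -0.01 (-0.07 to 0.06). Vegfc was the highest member, at 86.4 and 54.4 CPM, a ratio of 0.67 (0.49 to 0.85), and this was opposite in sign to its stromal value. The 9 members measured split into 5 above 0 and 4 below, centred at 0.10.

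Sox18, a transcription factor of blood and lymphatic endothelial fate, was among the 8 genes named on the higher side of this class. It had 1424 and 600 UMIs, or 156.8 and 84.4 CPM, a ratio of 0.89 (0.76 to 1.03), with UMIs in 56.7% of SAR131675 and 35.8% of control endothelial cells. Both clusters were higher, and the value was 0.90 with clusters weighted alike. The list of arterial genes held 10 of 12 members on the higher side with a median of 0.24, among them Sox17 at 0.35 (0.22 to 0.48) and Cxcl12, with most UMIs, at 0.31 (0.26 to 0.36). Dll4, a Notch ligand of arteries and sprouts, was the lowest at -0.31 (-0.45 to -0.18). Venous genes centred at -0.06, capillary genes at -0.01, junction genes at 0.01 and sprouting genes at -0.01, with the apelin receptor Aplnr at 0.63 and Angpt2 at -0.40 among the last.

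Genes of the G2 and M phases were higher in the endothelial class, as in epithelium and in stroma (22 of 27 higher, median 0.43, or 0.24 with clusters weighted alike). The list summed to 305.3 and 187.3 CPM in endothelial cells, against 1155.4 and 913.9 CPM over all kept cells. The part of RNA from dividing cells of other classes was not tested. Of 17 measured, 16 were higher, 3 of them past 2-fold, with a median of 0.65, or 0.57 with clusters weighted alike. Cenpf, a kinetochore protein, was the highest at 19.8 and 7.31 CPM, a ratio of 1.43 (0.99 to 1.91), from 180 and 52 UMIs. Mki67, the proliferation marker with most UMIs, had 37.9 and 23.1 CPM, a ratio of 0.71 (0.44 to 0.99), and Tacc3 was the lowest at -0.26 (-0.80 to 0.29). In the lymph node removal pair 10 of 17 members were lower, with a median of -0.08.

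The other genes named by the rule in the endothelial class were led by Crispld1 at 28.7 and 12.1 CPM, a ratio of 1.24 (0.89 to 1.62), and C1galt1c1, a chaperone of O-glycan synthesis, at 1.15 (0.76 to 1.57). C1galt1c1 met the class rule only through the SAR131675 library, at 21.9 CPM against 17.1 outside, since in the control library it was lower inside the class, at 9.84 against 14.4. Cthrc1 (0.88), Trappc2 (0.77), Sybu (0.75), the chemokine Cxcl1 (0.70) and the endothelial lectin Clec14a (0.69) completed the higher side, and each lay between 0.58 and 0.87 with clusters weighted alike. On the lower side the acute phase inhibitor Serpina3n had 24.2 and 48.5 CPM, and its ratio was -0.62 with clusters weighted alike. Serpina3n had more UMIs in cluster 14, where it stood at -0.74 (-1.01 to -0.48), and was on the higher side in cluster 18. Per2 followed at -0.90 (-1.30 to -0.50) and Spsb1 at -0.86 (-1.05 to -0.67). Reln, reelin, which lymphatic endothelium secretes and which helps to define cluster 14, had 203.6 and 359.8 CPM, a ratio of -0.82 (-0.91 to -0.73), and -0.40 with clusters weighted alike. Cacna1e (-0.83) and Apba2 (-0.77) also had more UMIs in cluster 14 than in cluster 18 and lay between -0.45 and -0.36 once clusters were weighted alike. Camk1d, a calmodulin-dependent kinase, stood at -0.82 here and at -0.74, -0.82 and -0.47 in epithelial, stromal and nerve cells. Over all kept cells Camk1d was lower in 32 of 32 clusters, so its value is not particular to the endothelial class. Zbtb16 had 23.8 and 62.8 CPM in the endothelial class, a ratio of -1.40 (-1.64 to -1.16), the lowest of 15 measured glucocorticoid genes, of which 12 were lower with a median of -0.27.

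In the nerve class 42 of 5683 genes were past 2-fold higher (0.739%) and 29 past 2-fold lower (0.510%), 1.25% in all, and 49.3% of all genes were above 0 and 50.7% below. The split turned to 17 higher and 46 lower with cells assigned by marker UMIs cell by cell. Of the genes past 2-fold in the cluster-based class, 34 higher and 24 lower had 50% or more of their UMIs in 10 cells. The class is made of Schwann-like cells of cluster 25, whose leading genes include the myelin gene Mal and the Schwann cell cadherin Cdh19. It was small and mixed: 36.4% of SAR131675 and 36.6% of control cells held many UMIs of another class. Epithelial markers summed to 4997.5 and 3026.3 CPM, with 12 of 12 higher under SAR131675. Erythroid markers summed to 1812.5 and 8375.8 CPM, with 5 of 5 lower. Endothelial markers summed to 64.7 and 192.1 CPM and immune markers to 59.9 and 6.25 CPM. Stromal markers summed to 5138.5 and 5965.1 CPM, with 10 of 12 lower. Melanocyte markers summed to 44.0 and 8.94 CPM, with 3 of 6 higher and 3 lower. The part of these in the nerve values was not tested.

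Myelin genes were close to equal or slightly lower. Of 18 measured, 13 were lower, with a median of -0.10. Mbp, which compacts the myelin membrane, had 2416.0 and 2914.6 CPM, a ratio of -0.27 (-0.34 to -0.21). Prx, periaxin, was the lowest at -0.35 (-0.49 to -0.21), and Pmp2 the highest at 1.85 (1.41 to 2.34) with 79.2% of its SAR131675 UMIs in 10 cells. Genes of Schwann identity were centred at -0.09, with Sox10 at -0.26 (-0.48 to -0.03) and Cdh19 at 0.18 (0.05 to 0.30), and genes of non-myelinating Schwann cells at 0.01. Repair Schwann genes had a median of 0.27 over 11 measured members, which turned to -0.03 without the mixed cells and to -0.16 with cells assigned by marker UMIs cell by cell. Their highest members Btc (1.56), Runx2 (1.33) and Igfbp2 (1.16) had between 68.8% and 87.6% of their SAR131675 UMIs in 10 cells, and Jun, which drives the repair state, was the lowest at -0.30 (-0.41 to -0.18).

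Immediate early genes were lower in the nerve class, in 19 of 23 members with a median of -0.38. These genes answer to stimuli within minutes. Fos, with most UMIs, had 2507.2 and 3058.5 CPM, a ratio of -0.29 (-0.35 to -0.22), Fosb was the lowest at -0.66 (-0.84 to -0.48) and Ccn1 the highest at 0.24 (0.01 to 0.48). In the epithelial, stromal and endothelial classes the same list stood at 0.00, -0.07 and 0.02. Glucocorticoid genes were lower for 10 of 11 with a median of -0.63, the furthest from 0 of the 4 classes, though the difference between classes was not tested. Mt1 had 503.2 and 859.6 CPM, a ratio of -0.77 (-0.90 to -0.64), Tsc22d3 144.8 and 243.0 CPM, a ratio of -0.75 (-0.99 to -0.50), and Fkbp5 22.8 and 77.7 CPM from 43 and 87 UMIs, a ratio of -1.76 (-2.33 to -1.23).

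The rule named Adamtsl1, a secreted matrix protein, as the highest gene of the nerve class, at 197.8 and 91.1 CPM, a ratio of 1.11 (0.80 to 1.45). Dhrs3, a retinal reductase, followed at 0.96 (0.52 to 1.43), and Synpr, a synaptic vesicle protein, at 0.76 (0.46 to 1.07). Pigp, Acsl3, Pde10a, Cox17 and Pde7b lay between 0.64 and 0.71. On the lower side, beside Mt1 and Tsc22d3, Prickle1 stood at -0.81 (-1.22 to -0.40), Tnxb, a matrix tenascin, at -0.79, Rhoj at -0.78 and Nr3c2, the mineralocorticoid receptor, at -0.74 (-1.08 to -0.40), with Limd1 at -0.73 and Slc7a2 at -0.67. Mt1 and Limd1 met the class rule only through the control library, where they were high, since under SAR131675 they stood at 503.2 and 70.0 CPM against 557.5 and 71.3 outside the class. These values rested on 324 and 205 cells, and the genes were named for having the highest and lowest ratios. Flt4 had 0 UMIs in SAR131675 nerve cells, which with the exact interval allows up to 1.96 CPM, and 4 in control nerve cells.

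Across classes few genes kept one sign with any size. Of the 5416 genes with at least 100 UMIs in each of the 4 classes, 978 were higher in all 4 and 1028 lower in all 4. None was past 1.5-fold higher in all 4 classes, and 2 were past 1.5-fold lower in all 4, Lars2, a mitochondrial tRNA synthetase, and Gm19951. Both belong to a group of genes lower in 32 of 32 clusters, erythroid and immune clusters included, which is described under the other observations. Over the 45 lists, taken in the classes where they apply, 23 of 112 medians lay at least 0.25 from that of all genes. Lists of hypoxia, glycolysis, heat shock, histone, p53 and xenobiotic genes had medians between -0.03 and 0.04 over all cells, and the interferon list one of -0.12. With clusters weighted alike the histone median was -0.18 and the glycolysis median -0.10. In stroma, tendon, pericyte, adventitial, blastema, scar and protease genes and those of inflammatory fibroblasts had medians between -0.08 and 0.17.

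**Figure D5:**
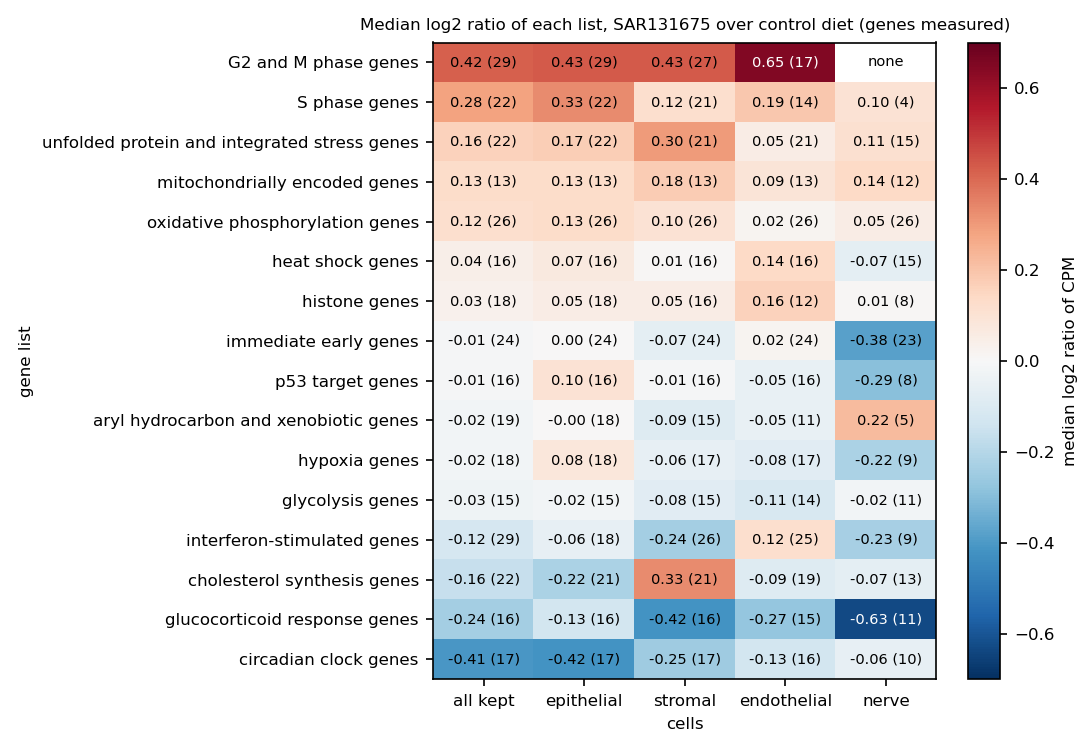
Median log2 ratio of SAR131675 over control for the gene lists shared by all cells (rows), over all kept cells and in the 4 classes (columns), with red above 0, blue below 0 and the number of genes measured in brackets. The erythroid and hemoglobin list is not drawn. The clock and glucocorticoid rows are below 0 in every column, from -0.41 and -0.24 over all cells, and the cholesterol row is above 0 only in stroma, at 0.33.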

How the data were processed

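Droplet single-cell RNA-seq libraries labelled as the P3 digit, 1 per diet, were analysed. The authors deposited UMI counts per gene and barcode, made with Cell Ranger (6.1.2 per the submitters' processing notes, 8.0.1 per the file headers of the diet pair) on GRCm39. Their later normalization and integration were not repeated, and no annotation of cells by the authors was used. Each pair of libraries was clustered on its own with scanpy 1.11.5 (2000 variable genes, 30 components, 20 neighbours, resolution 0.7). Clusters were classed by marker lists, with a naming rule chosen after the clusters were seen. Cells of the nerve cluster with more melanocyte than nerve marker UMIs, 4 SAR131675 and 11 control cells, were set apart as melanocytes. No doublet caller was run, and leaving out mixed cells, whose second class held at least 25% of their marker UMIs, was an alternative. UMIs were summed per library and class, genes with at least 100 UMIs were compared, and intervals were exact (scipy 1.17.1). Log2 ratios added 0.5 UMI to each side. With 1 library a side no test between diets exists. Clusters weighted alike means that each cluster took its mean share of UMIs in both libraries, and a gene was compared within a cluster from 30 UMIs. The genes named were the 10 highest and 10 lowest ratios over all cells (500 UMIs or more) and the 8 of each side per class (200 or more, and a mean CPM of both libraries no lower in the class than outside it), without ribosomal, mitochondrial and unnamed predicted genes and without genes carried by 10 cells. In each list the highest, the lowest and the member with most UMIs were named, and other members were chosen after their values were seen. A few genes that the rule names are not reported here. The classes, markers and 45 gene lists were chosen with earlier results of these data known. Promoters came from a RefSeq table on GRCm38.p6. The calculation was tested on simulated counts.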

Additional observations from a re-analysis of the deposited data

Results flagged for a closer look

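Cholesterol synthesis genes stood on opposite sides in the 2 largest classes. Their median log2 ratio of SAR131675 over control was 0.33 in stromal cells, with 20 of 21 genes higher, and -0.22 in epithelial cells, with 18 of 21 lower. The medians were 0.26 and -0.08 with clusters weighted alike, and within clusters the stromal median was above 0 in 6 of 7 and the epithelial one below 0 in 8 of 14. The lymph node removal pair had the same signs at smaller size, with medians of 0.04 (15 of 21 higher) and -0.05 (16 of 21 lower). Each diet was 1 library, so the difference between the classes was not tested.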

How the results depend on the processing

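Depth limited the small classes: 10602 genes reached 100 UMIs in endothelial and 5683 in nerve cells, against 16529 in epithelial cells. No paired analysis was possible because each diet was 1 library and the libraries share no replicate, and for the same reason no replicate could be left out. The number of genes past 2-fold over all cells, 204, was 469 from 30 UMIs, 112 from 300 UMIs, 931 at 1.5-fold (456 higher, 475 lower) and 113 with clusters weighted alike (61 higher, 52 lower). In epithelial cells 215 became 499, 122, 1033 and 100 (48 higher, 52 lower). In stromal cells 116 became 388, 47 and 566 under the first 3, and 63 and 66 at resolutions 0.4 and 1.2. Weighting stromal clusters alike left 61 higher and 19 lower. In endothelial cells 60 became 274, 25 and 343, and also 100 with the deepest barcodes kept (67 higher, 33 lower), 39 with cells assigned by marker UMIs cell by cell (26 higher, 13 lower) and 144 with every cell weighted equally. In nerve cells 71 became 323, 15 and 343, 36 without mixed cells and 63 cell by cell (17 higher, 46 lower). Leaving out every cell with at least 2 marker UMIs of each of 2 classes removed 86.2% to 98.0% of stromal, endothelial and nerve cells, and 51.8% of SAR131675 and 42.5% of control epithelial cells. It gave 646 genes over all cells (65 higher, 581 lower), 106 higher and 94 lower in epithelial, 85 and 54 in stromal, 38 in endothelial and 6 in nerve cells, and log2 ratios of class shares of 0.06 (epithelial), -1.09 (stromal), -1.08 (endothelial) and 1.51 (nerve). The epithelial share was 0.04 at resolution 0.4. Repair Schwann genes in nerve cells turned from 0.27 to -0.03 without mixed cells and -0.16 cell by cell. Over the alternatives, list medians gave 858 values that stayed close, 173 that moved further and these 2 reversals among lists past 0.25. Named genes gave 567 values inside their counting interval and 154 outside it, with 0 reversals among those past 2-fold. The causes were not tested. Leaving out mixed cells, and weighting clusters alike over all cells, were chosen after seeing the data.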

Other observations

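A group of genes outside the lists, chosen after their values were seen, was lower in the SAR131675 library in every cluster. Camk1d had 1023.0 CPM in the SAR131675 library and 1727.7 CPM in the control library, a log2 ratio of -0.76. Cmss1 had 1618.4 and 2552.7 CPM, a ratio of -0.66, and Lars2 537.0 and 830.6 CPM, a ratio of -0.63. Filip1l, which overlaps Cmss1 and may share reads with it, stood at 203.2 and 290.2 CPM, and Gm19951 at 103.9 and 194.8 CPM. All 5 were lower in 32 of 32 clusters, erythroid and immune clusters included. In the pair with and without lymph node removal Camk1d had 3660 and 3768 UMIs, a ratio of 0.03, Cmss1 was at 23.0 and 23.7 CPM, and Lars2 was at 275.0 and 269.2 CPM. Malat1, a nuclear RNA, had 15287.3 and 13271.9 CPM under SAR131675 and control, a ratio of 0.20, and was higher in 31 of 32 clusters. The matrices of the lymph node removal pair name another Cell Ranger version than the diet matrices, so levels are not compared between the pairs. The part of these genes in the other values was not tested.

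Other values of interest to a follow-up lay outside the named genes and were chosen after they were seen. Saa3, an acute phase protein of fibroblasts, stood at 2.09 in stroma with 96.8% of its SAR131675 UMIs in 10 cells, and at 2.12 in the lymph node removal pair. Il6 in the endothelial class had 233.2 and 147.8 CPM, a ratio of 0.66 (0.55 to 0.77). Fabp4, a fatty acid carrier of capillaries, stood there at 0.48 and Timp4 at -1.31, from 61 and 119 UMIs. Prox1, the regulator of lymphatic identity, was at -0.18 in the endothelial class and 0.24 with clusters weighted alike, and Lyve1 at -0.62 and -0.20. In epithelium the tight junction gene Cldn10 went from 1.34 to 0.32 with clusters weighted alike, and the hypoxia-induced hormone Stc2 from 1.60 to 0.96. Both were higher outside the class. Cldn10 had 13.0 and 5.13 CPM inside it and 26.4 and 25.1 CPM outside. Stc2 had 0.462 and 0.150 CPM inside, from 117 and 30 UMIs, and 16.7 and 19.9 CPM outside. The part of RNA from other cells in these values was not tested.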
